A study of Mus musculus with 4 samples.

Results

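The regions described here are the alternative promoters of genes that carry H3K4 signal at transcription start sites (TSSs) far apart in the same gene. A gene was taken when at least 2 of its annotated TSSs lay 5 kb or more apart and each held 50 or more reads within 1 kb in both libraries combined. Of 22367 protein-coding genes of GENCODE vM1 (mouse genome mm9), 12523 had 2 or more TSSs, 6823 had TSSs 5 kb or more apart, 5109 of these held 50 reads at some TSS, and 696 met the whole rule. For each of the 696 genes the most upstream and the most downstream such TSS were compared. The TSSs were thus selected on the combined reads, so their levels are a description. A TSS with few reads in 1 library passed only through the other, so large changes at such TSSs follow in part from the rule. Of the members, 59 had only 50 to 59 reads at the weaker TSS, with a median log2 change of the downstream to upstream ratio (knockout against wild type) of 0.16. Among the 62 genes that would have qualified at 40 reads but not at 50 this median was 0.05. The shortest distance was 5020 bp, and 24 members lay between 5000 and 5499 bp (median 0.28) against 29 genes left out at 4500 to 4999 bp (median 0.04).

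The data are ChIP-seq reads from splenic B cells of PA1-KO and PA1-WT mice, 1 library per genotype, precipitated with an antibody labelled H3K4 with no methylation state given. The mice were 6 to 14 weeks old, and the B cells were taken as the fraction left after removal of CD43-positive cells. They were cultured for 2 days with LPS at 25 µg/ml plus either α-IgD-dextran at 2.5 ng/ml or IL4 at 5 ng/ml, and the labels of these libraries do not say which. The labels give both genotypes the same culture text and native, MNase-digested chromatin. The labels do not give the deleted part of PA1, the promoter of any Cre, or how many mice were pooled. The other 2 samples of the series, labelled H3K4me4 with LPS and dextran, were not analysed here.

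Many genes can be transcribed from several promoters, and the choice sets which 5′ exon, and at times which start codon, the transcript carries. Nucleosomes around active promoters carry methylated H3K4, with a gap at the start site itself. As the methylation state is not given here, signal at a TSS need not show a promoter in use or ready for use. PA1 binds PTIP, and both belong to the complex of the methyltransferases MLL3 and MLL4. Promoters rich in CpG dinucleotides are marked in most cell types, while CpG-poor promoters are more often tied to a cell type.

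The sequence just before each TSS shows how unlike the promoters of 1 gene can be. The 120 bases before each TSS are printed for 6 of the genes most shifted between the libraries, 4 toward downstream and 2 toward upstream, taken from those whose windows hold no annotated exon. They are read on the gene's own strand from mm9, in lower case with each CpG dinucleotide in capitals. In the first 4 genes the knockout library had relatively more reads downstream, and in the last 2 relatively more reads upstream.

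For Inpp5a (plus strand) the windows are chr7:146574888-146575007, with 9 CpGs, and chr7:146586268-146586387, with 2.
Inpp5a upstream: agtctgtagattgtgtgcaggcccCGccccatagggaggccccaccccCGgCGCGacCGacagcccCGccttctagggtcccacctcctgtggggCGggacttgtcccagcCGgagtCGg
Inpp5a downstream: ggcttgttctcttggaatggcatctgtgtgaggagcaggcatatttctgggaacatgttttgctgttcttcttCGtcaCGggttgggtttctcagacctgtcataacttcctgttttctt

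For St6gal1 (plus strand) they are chr16:23224693-23224812, with 6 CpGs, and chr16:23290423-23290542, with 3.
St6gal1 upstream: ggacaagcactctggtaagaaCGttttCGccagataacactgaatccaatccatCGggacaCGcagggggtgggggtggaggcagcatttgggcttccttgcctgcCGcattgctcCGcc
St6gal1 downstream: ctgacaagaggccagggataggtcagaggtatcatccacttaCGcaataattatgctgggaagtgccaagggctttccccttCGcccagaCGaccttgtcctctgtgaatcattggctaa

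For Arid4a (plus strand) they are chr12:72116857-72116976, with 7 CpGs, and chr12:72149208-72149327, with 2.
Arid4a upstream: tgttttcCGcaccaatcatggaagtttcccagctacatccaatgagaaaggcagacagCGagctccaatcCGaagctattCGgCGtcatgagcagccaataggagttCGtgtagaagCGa
Arid4a downstream: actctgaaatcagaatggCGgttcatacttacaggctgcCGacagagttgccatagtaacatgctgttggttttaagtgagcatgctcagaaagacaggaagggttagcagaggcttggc

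For Tcf12 (minus strand) they are chr9:71959627-71959746, with 18 CpGs, and chr9:71743891-71744010, with 0.
Tcf12 upstream: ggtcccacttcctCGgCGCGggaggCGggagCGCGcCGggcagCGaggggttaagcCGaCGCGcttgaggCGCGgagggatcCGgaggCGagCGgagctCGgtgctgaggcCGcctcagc
Tcf12 downstream: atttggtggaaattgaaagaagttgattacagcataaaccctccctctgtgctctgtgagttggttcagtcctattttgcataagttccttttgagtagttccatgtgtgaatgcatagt

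For Ccdc123 (plus strand) they are chr7:36181934-36182053, with 3 CpGs, and chr7:36201227-36201346, with 1.
Ccdc123 upstream: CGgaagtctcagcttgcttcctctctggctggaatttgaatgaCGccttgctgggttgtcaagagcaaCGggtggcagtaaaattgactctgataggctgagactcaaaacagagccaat
Ccdc123 downstream: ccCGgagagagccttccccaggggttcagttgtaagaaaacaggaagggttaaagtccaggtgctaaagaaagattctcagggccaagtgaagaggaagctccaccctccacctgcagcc

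For Arhgef6 (minus strand) they are chrX:54591907-54592026, with 2 CpGs, and chrX:54579779-54579898, with 5.
Arhgef6 upstream: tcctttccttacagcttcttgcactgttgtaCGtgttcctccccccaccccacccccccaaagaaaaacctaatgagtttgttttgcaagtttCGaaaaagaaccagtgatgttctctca
Arhgef6 downstream: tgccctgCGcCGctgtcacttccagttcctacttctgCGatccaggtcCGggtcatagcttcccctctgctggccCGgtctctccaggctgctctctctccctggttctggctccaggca

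Over all members the downstream promoters were poorer in CpG. Within 1 kb of the TSS the median GC content was 55.0% upstream and 51.3% downstream, against 54.1% over 1 TSS for each of 12186 marked protein-coding genes. The median ratio of observed to expected CpGs was 0.607 upstream, 0.366 downstream and 0.628 over all. The downstream window had the lower GC content in 475 of 696 members. In the 300 bases from 250 before to 50 after the TSS, the median number of CpGs was 20 upstream, 9 downstream and 23 over all tested promoters.

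Short motifs followed the same lines. The GC box GGGCGG, searched on both strands in these 300 bases, was present at 64.2% of upstream, 42.8% of downstream and 67.5% of all tested promoters. The ETS motif CCGGAAG was present at 12.8%, 8.33% and 18.7%, and the CCAAT box (letters CCAAT) at 37.8%, 29.7% and 35.5%. The E box CAGGTG, a core bound by E proteins, was present at 21.1% of upstream and 24.6% of downstream promoters, against 17.8% of all. The PU.1 motif GAGGAAGT was present at 4.74%, 5.03% and 3.18%. TATAAA was present at 5.03% of upstream, 6.90% of downstream and 5.12% of all promoters. A match describes the letters in this window and does not show that a factor binds there.

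The promoters of a pair were separate sites of signal in nearly all members. The median distance between them was 23455 bp, with quartiles of 9991 and 59283 bp and a range up to 1305031 bp at Arfip1. In 678 members the TSSs lay in separate islands of enrichment and in 18 in the same island. In 677 members (97.3%) the combined signal dropped between the TSSs, in some 500 bp stretch, to 50% or less of the density at the weaker TSS. A member had a median of 5 marked TSSs (range 2 to 21), so many pairs are the outermost of several. The downstream TSS lay in an intron of the transcripts from the upstream TSS in 523 members, in an exon in 83 and beyond their end in 90. A protein-coding transcript started at the upstream TSS in 559 members, at the downstream TSS in 428 and at both in 357. In 252 members (36.2%) a TSS of another gene lay within 1 kb, at the upstream TSS in 224 and at the downstream TSS in 68, so part of that signal can belong to the neighbour.

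**Figure D1:**
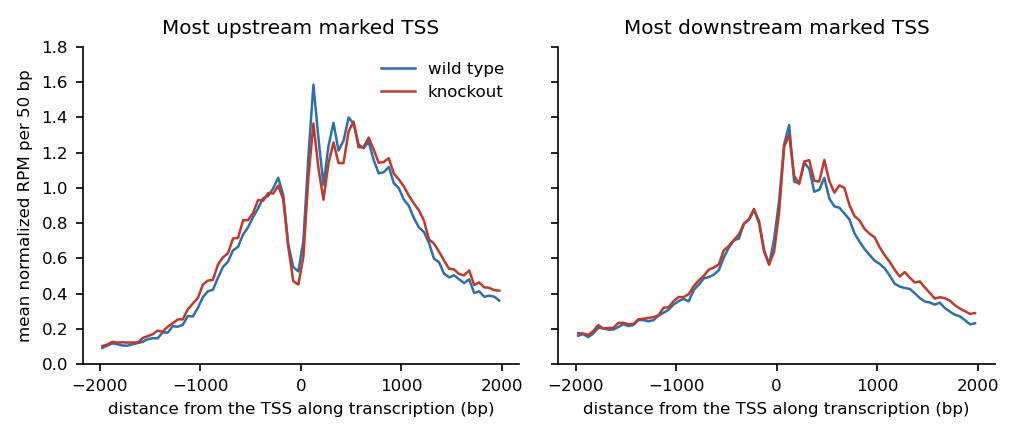
Mean normalized RPM per 50 bp (reads per 1000000 nuclear reads after scaling) against distance from the TSS along transcription, averaged over 696 members, at the most upstream (left) and most downstream (right) marked TSS in the wild-type and knockout libraries. Both kinds of promoter show a dip at the TSS and a higher flank on the transcribed side.

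The average profile had a dip near the TSS and a higher flank on the transcribed side at both TSSs. Whether the promoters were active was not measured. At the upstream TSS the wild-type mean was 0.613 normalized RPM per 50 bp from 150 bp before to 50 bp after the TSS, and 1.24 from 100 to 900 bp after it. The knockout means there were 0.549 and 1.2. At the downstream TSS the wild-type means were 0.712 around the TSS and 0.949 on the transcribed side, and the knockout means 0.676 and 1.02. The dip was shallower at the downstream TSS in both libraries. Averaged from 100 to 900 bp, the knockout was below the wild type at the upstream TSS and above it at the downstream TSS. Within that range the order changed with distance. At 125 bp the knockout was lower at both TSSs, 1.37 against 1.59 upstream and 1.30 against 1.36 downstream. At 725 bp the knockout was higher at both, 1.22 against 1.16 upstream and 0.903 against 0.821 downstream.

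The upstream promoter had more reads in most members. In the wild-type library the median was 201.5 reads at the upstream and 133 at the downstream TSS, and in the knockout 169 and 119, which are 36.4 and 24.0 normalized RPM in wild type and 34.8 and 24.5 in knockout. The upstream TSS was ahead in 424 of 696 members in wild type (60.9%) and in 401 in knockout (57.6%). At least 2-fold more reads lay upstream in 251 members in wild type and 244 in knockout, and downstream in 112 and 140. The median log2 ratio of downstream to upstream reads was -0.38 in wild type and -0.25 in knockout. With a window of 500 bp in place of 1 kb the upstream TSS was ahead in 52.8% of members in wild type and 48.6% in knockout, and with 2 kb in 68.1% and 65.8%.

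CpG content went with which promoter was ahead. The 277 members with a CpG-rich upstream and a CpG-poor downstream promoter (observed to expected CpG of 0.6 or more and below 0.6) had a median log2 downstream to upstream ratio of -0.77 in wild type and -0.56 in knockout. In the 73 members of the opposite layout it was 0.39 and 0.42, and the downstream TSS was ahead in 50 of them in wild type. The 79 members with both promoters CpG-rich had a median of -0.04 in wild type, and the 267 with both CpG-poor -0.45.

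Members ranged from nearly all signal downstream to nearly all upstream. Dnaja3, a mitochondrial co-chaperone, had 36 wild-type and 22 knockout reads at the upstream TSS and 461 and 456 at the downstream TSS. Evl, an actin regulator of the Ena/VASP family, had 33 and 26 upstream and 444 and 439 downstream. Lrmp, a lymphoid-restricted membrane protein, had 26 and 25 upstream and 436 and 462 downstream. Tsc22d3 encodes GILZ, a glucocorticoid-induced protein, and had 36 and 25 upstream and 381 and 356 downstream. At these 4 genes the downstream TSS led by a wide margin in both libraries. At the other end stood Spef1, a sperm flagellar protein whose upstream TSS lies within 1 kb of a Cdc25b TSS, with 485 and 479 reads upstream and 32 and 21 downstream. 1110005A03Rik, whose upstream TSS lies near Jmjd6, had 415 and 336 upstream and 25 and 30 downstream. Xrcc6, at 458 and 438 upstream and 23 and 86 downstream, and St6gal1, at 339 and 261 and 19 and 45, complete that end.

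The members with the most reads had strong signal at both promoters in both libraries. Sykb, which encodes the SYK kinase of B cell receptor signalling, had 289 wild-type and 249 knockout reads upstream and 558 and 602 downstream. Arhgap25, a GTPase-activating protein for RAC, had 463 and 532 upstream and 473 and 417 downstream. Gimap1, a GTPase of lymphocytes, had 436 and 360 upstream and 487 and 513 downstream. Dido1, a chromatin-binding protein with a PHD finger, had 453 and 449 upstream and 441 and 382 downstream. Vmp1, an autophagy membrane protein, had 465 and 483 upstream and 393 and 421 downstream. None of these 5 passed the rule for a shift, with ratios of ratios from 0.767 (Arhgap25) to 1.28 (Gimap1).

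The 3 members with the longest distances had signal at both promoters. Arfip1, with 1305031 bp between its TSSs, had 131 wild-type and 95 knockout reads upstream and 476 and 399 downstream. Fhit, a fragile-site gene whose TSSs lie 708577 bp apart, had 188 and 183 upstream and 148 and 162 downstream. Pde4d, a cyclic AMP phosphodiesterase with 666204 bp between its TSSs, had 43 and 33 upstream and 34 and 34 downstream. None of the 3 passed the rule for a shift between the genotypes.

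To ask whether the balance between the promoters of a gene differed between the genotypes, the downstream to upstream ratio in the knockout was divided by that in the wild type. Library scaling cancels in this ratio of ratios. A member was called shifted when it was at least 1.5-fold from 1 and the exact conditional 95% interval excluded 1. Each genotype has a lone library, so no replicate checks these values, and every interval covers counting error only. The balance was largely kept: across the 696 genes, which are not independent replicates and share both libraries, the log2 ratios in the libraries had a Pearson correlation of 0.948 and a Spearman correlation of 0.953. Of 363 members with a 2-fold stronger TSS in wild type, 359 had the same TSS ahead in knockout.

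**Figure D2:**
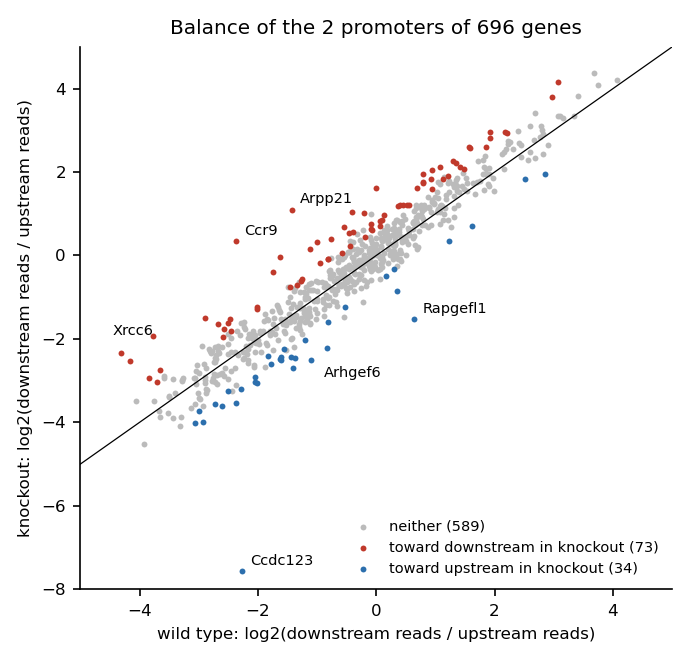
Log2 of downstream over upstream reads in the knockout (vertical) against the wild type (horizontal), 1 point per member, with the line of equality. The points follow the line, with 73 members called toward downstream above it and 34 toward upstream below it.

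The knockout library leaned toward the downstream promoter. The median log2 ratio of ratios was 0.12 (quartiles -0.19 and 0.39), and it was above 0 in 418 of 696 members (60.1%). In 73 members (10.5%) the balance was called shifted toward the downstream TSS and in 34 (4.89%) toward the upstream TSS. Among 10637 pairs of neighbouring genes, each taken at its strongest TSS, 12.4% were called in either direction, 6.16% toward the TSS of higher and 6.26% toward that of lower coordinate. The members' share in either direction was 15.4% (exact binomial interval 12.8% to 18.3%), somewhat above that background. This interval treats the members as independent, which they are not. The weaker TSS of members held fewer reads than that of pairs (median 168.5 against 306). At a 2-fold threshold 22 (3.16%) and 11 (1.58%) members were called, against 3.8% of neighbouring pairs in either direction.

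The lean went with GC content. When the trend of the knockout to wild-type ratio with GC over all 12186 promoters was removed, the median log2 ratio of ratios was 0.03. Of 696 members, 42 were then called toward downstream and 38 toward upstream, against 9.04% of neighbouring pairs in either direction. Of the 73 members called toward downstream 37 were still called, and of the 34 toward upstream 27. With the trends with GC and with level both removed, the counts were 53 and 21 of 696 members. Of neighbouring pairs 5.15% were then called in either direction. Whether the GC trend arose in the cells or in making the libraries was not tested.

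**Figure D3:**
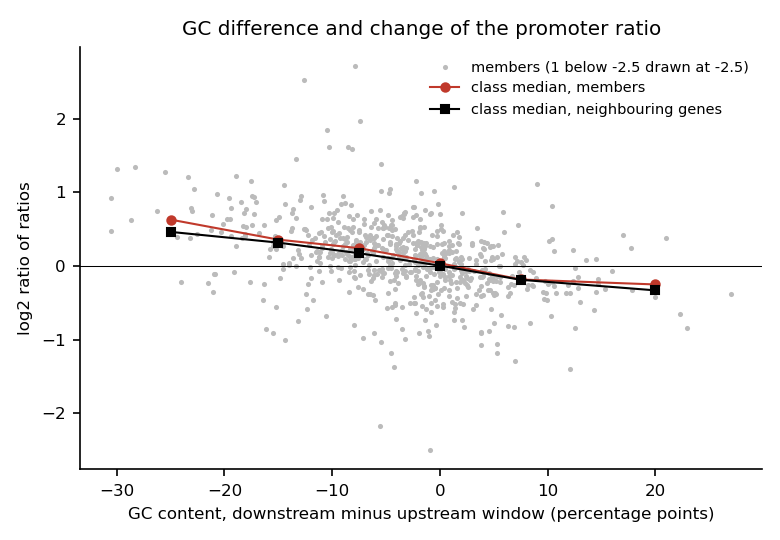
Log2 ratio of ratios (vertical) against the GC content of the downstream minus that of the upstream window in percentage points (horizontal) for members, with class medians for members and for pairs of neighbouring genes. Both lines of medians fall from above 0 on the left to below 0 on the right.

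Members and neighbouring pairs had much the same dependence on GC. Where the downstream window was poorer in GC by over 20 points, the median log2 ratio of ratios was 0.63 in 25 members. It was 0.46 in 65 neighbouring pairs. Of these members 12 were called toward downstream and 0 toward upstream. Of the pairs 23 were called toward the TSS of higher coordinate and 0 toward the lower. At a deficit of 10 to 20 points the median was 0.36 in 110 members (26 and 4 called). In 937 pairs it was 0.32 (187 and 5). Within 5 points either way it was 0.04 in 330 members (18 and 15 called) and 0.01 in 5425 pairs (249 and 224). Where the downstream window was richer by over 10 points it was -0.25 in 36 members (1 and 5 called). In 1018 pairs it was -0.33 (11 and 207). With the GC trend removed these 4 member medians were 0.16, 0.04, 0.01 and 0.08.

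Distance went with the lean in the same way. Over all members 10.5% were called toward downstream and 4.89% toward upstream. The median log2 ratio of ratios was 0.05 in the 175 members with TSSs 5 to 10 kb apart (8 called toward downstream, 12 toward upstream), and 0.07 in the 187 at 10 to 25 kb (10 and 11). It was 0.13 in the 130 at 25 to 50 kb (16 and 3), 0.19 in the 128 at 50 to 100 kb (21 and 6) and 0.27 in the 76 beyond 100 kb (18 and 2). The median GC difference of these classes ran from -2.10 and -1.75 points in the shorter ones to -3.62, -4.62 and -7.10 in the longer ones. With the GC trend removed the medians were 0.01, 0.01, 0.04, 0.09 and 0.11.

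The calls were also counted by start codon and by CpG layout, to be read against 10.5% of all members toward downstream and 4.89% toward upstream. In 236 members the coding transcripts from the 2 TSSs began at different start codons, and 36 were called toward downstream and 11 toward upstream (median log2 0.17). In 142 members they shared a start codon, and 9 and 5 were called (median 0.02). In 318 members no coding transcript began at 1 or both TSSs, and 28 and 18 were called (median 0.12). By CpG layout, 41 of the 277 members with a CpG-rich upstream and CpG-poor downstream promoter were called toward downstream and 15 toward upstream. Of the 267 members with both promoters CpG-poor, 23 and 15 were called. Of the 79 with both CpG-rich, 3 and 1 were called, and of the 73 with a CpG-poor upstream and CpG-rich downstream promoter 6 and 3. The median log2 ratio of ratios of these CpG layouts, in the same order, was 0.19, 0.10, 0.07 and 0.03. With the GC trend removed the medians were -0.01, 0.07, 0.02 and 0.12.

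Each promoter was also compared on its own, as the TMM-scaled ratio of knockout to wild type with the same 1.5-fold rule. Upstream, 58 members were lower in the knockout (8.33%) and 6 higher (0.862%), and downstream 43 were lower (6.18%) and 35 higher (5.03%). Over 1 TSS for each of 12186 genes, 4.9% were lower and 0.665% higher. The median log2 ratio was -0.07 upstream, 0.02 downstream and 0.00 over all tested promoters. Among the 73 members shifted toward downstream, the upstream TSS was called lower in 26 and the downstream TSS higher in 27, with 4 having both, and neither was called in 24. Among the 34 shifted toward upstream, the downstream TSS was called lower in 22, the upstream TSS higher in 5, and neither in 7. Scaled to reads outside islands and promoters, 173 upstream and 142 downstream TSSs were lower and 1 and 10 higher.

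Both promoters were lower together in 9 members, with no shift called in any. Among them were Lhx9, Tbx15, Itga2b and Bcor. Bcor, a transcriptional corepressor, had 55 wild-type and 27 knockout reads upstream and 93 and 53 downstream. Both promoters were higher in 1 member, St7, with 23 and 67 upstream and 71 and 110 downstream. St7 was itself called toward upstream, at 0.532 (0.289 to 0.959), and within 5 Mb of it lay 18 positions where reads of the wild-type library alone differed from the reference base. Whether these bear on its values was not tested.

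**Figure D4:**
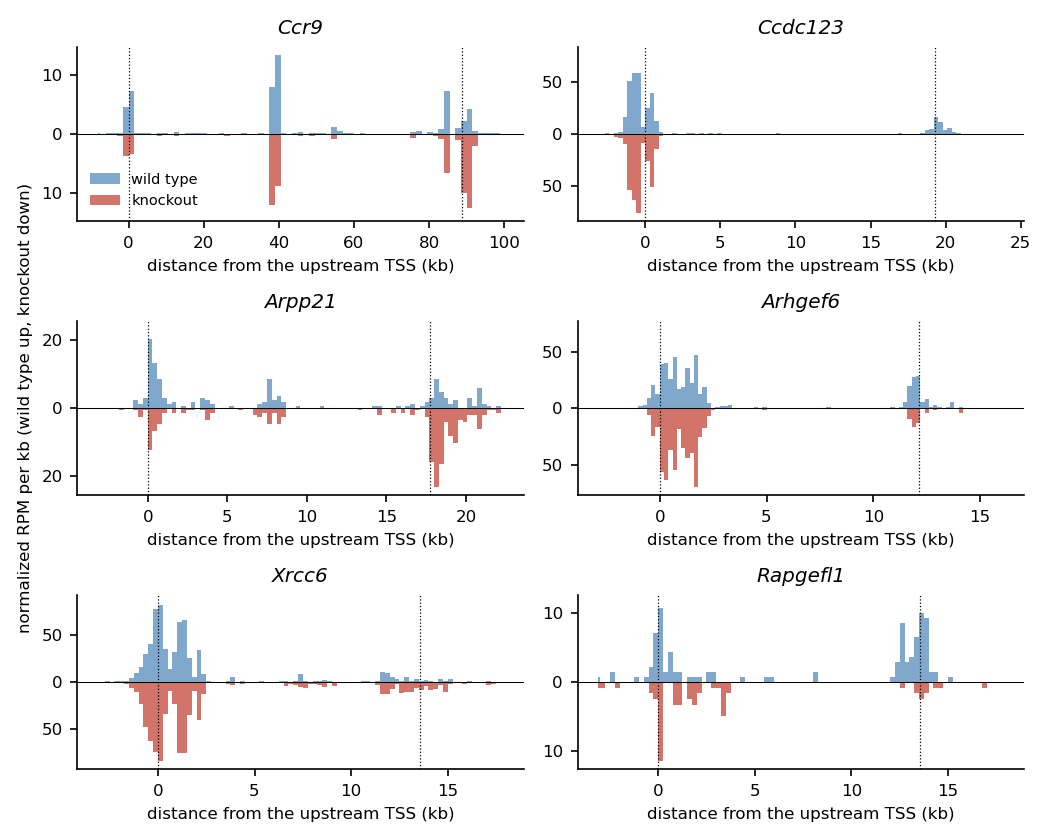
Normalized RPM per kb along 6 members, wild type above and knockout below the line, against distance from the upstream TSS in kb; dotted lines mark the compared TSSs. At the left-hand genes the knockout has relatively more signal at the right dotted line, and at the right-hand genes relatively less.

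The 12 members shifted toward downstream whose intervals lay farthest from 1 began with Ccr9 and Arpp21. Ccr9 encodes a chemokine receptor that guides lymphocytes to the gut (chromosome 9, plus strand, TSSs at 123587557 and 123676347). It had 98 wild-type and 51 knockout reads upstream and 19 and 65 downstream. The knockout was lower at 1 promoter and higher at the other, and the ratio of ratios was 6.57 (3.43 to 12.8). With 19 wild-type reads, its downstream TSS met the read minimum only through the knockout. The upstream TSS lies within 1 kb of TSSs of Slc6a20a and Gm17200. Arpp21, a cyclic AMP-regulated phosphoprotein (chromosome 9, minus strand, 112137522 and 112119765), had 86 and 42 reads upstream and 32 and 90 downstream. Its ratio of ratios was 5.76 (3.22 to 10.3), and its stronger TSS changed from upstream in wild type to downstream in knockout. Its upstream TSS lies within 1 kb of 2900079G21Rik.

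Xrcc6 and Stambpl1 kept a strong upstream promoter and had more downstream signal in the knockout. Their downstream TSSs, with few wild-type reads, met the read minimum only through the knockout, so part of this change follows from the rule. Xrcc6 encodes Ku70, the end-binding protein of non-homologous end joining, the pathway that completes class switching (chromosome 15, plus strand, 81845949 and 81859490). It had 458 wild-type and 438 knockout reads upstream and 23 and 86 downstream, a ratio of ratios of 3.91 (2.39 to 6.61). With a 2 kb window its log2 value was 0.99 in place of 1.97, still called. The upstream TSS lies within 1 kb of Pppde2, and no protein-coding transcript starts at the compared downstream TSS. Stambpl1, a deubiquitinase (chromosome 19, plus strand, 34266719 and 34292114), had 233 and 194 upstream and 17 and 51 downstream, 3.6 (1.97 to 6.86).

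St6gal1, the sialyltransferase that caps N-glycans and makes the ligand of CD22 on B cells, had the same layout (chromosome 16, plus strand, 23224813 and 23290543). It had 339 wild-type and 261 knockout reads upstream and 19 and 45 downstream, 3.08 (1.71 to 5.70). Its downstream TSS likewise met the read minimum only with the knockout reads. Its strongest TSS in these libraries lay between, at 23226094, with 573 and 451 reads, and a further TSS at 23269702 had 67 and 66. The upstream TSS lies within 1 kb of BC106179. With the strongest 2 TSSs in place of the outermost the log2 value was 0.32 in place of 1.62 and was not called, and with 500 bp windows it was 0.39 and not called.

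Inpp5a, Arid4a and Tcf12 differed at a CpG-poor downstream promoter. Inpp5a, an inositol polyphosphate phosphatase (chromosome 7, plus strand, 146575008 and 146586388), had 142 wild-type and 102 knockout reads upstream and 46 and 100 downstream, 3.03 (1.92 to 4.78). Arid4a, a retinoblastoma-binding chromatin protein (chromosome 12, plus strand, 72116977 and 72149328), had 200 and 147 upstream and 60 and 112 downstream, 2.54 (1.71 to 3.78). Tcf12, the E protein HEB (chromosome 9, minus strand, 71959626 and 71743890), had 142 and 106 upstream and 71 and 132 downstream, 2.49 (1.67 to 3.72). In all 3 the downstream TSS was called higher and the upstream TSS was not called. The GC content of the downstream window was lower by 28.3 points at Arid4a and 29.9 at Tcf12, and with the GC trend removed both had a ratio of ratios of 1.76 and were still called. The upstream TSS of Arid4a lies within 1 kb of 3110056K07Rik. At Inpp5a the difference in GC was 8.15 points and the value 2.66.

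The remaining 4 of the 12 were Fndc3a, D18Ertd653e, Spata13 and Coro2b. Fndc3a, a fibronectin domain protein (chromosome 14), had 249 wild-type and 160 knockout reads upstream and 171 and 255 downstream, 2.32 (1.74 to 3.09). D18Ertd653e (chromosome 18) had 195 and 128 upstream and 169 and 259 downstream, 2.33 (1.72 to 3.17). Spata13, an exchange factor for RAC and CDC42 (chromosome 14), had 150 and 87 upstream and 316 and 379 downstream, 2.07 (1.51 to 2.84). Coro2b, an actin-binding coronin (chromosome 9), had 61 and 34 upstream and 46 and 70 downstream, 2.73 (1.5 to 4.98). Spata13 and Coro2b lost the call with 500 bp windows. The downstream window was poorer in GC by 23.3 points at Fndc3a, 18.9 at D18Ertd653e, 4.6 at Spata13 and 13.3 at Coro2b. With the GC trend removed the ratios of ratios were 1.71, 1.72, 1.94 and 2.19 in that order, still called.

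An exchange of the stronger promoter, with the 95% binomial interval of the downstream share off 50% in both libraries, was seen in 5 members. Fndc3a, Arpp21, Myo10 and Pde2a went from upstream in wild type to downstream in knockout. Myo10, an unconventional myosin of filopodia, had 183 wild-type and 105 knockout reads upstream and 139 and 154 downstream. Pde2a, a cyclic nucleotide phosphodiesterase, had 123 and 81 upstream and 89 and 117 downstream. Rapgefl1 went the other way.

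**Figure D5:**
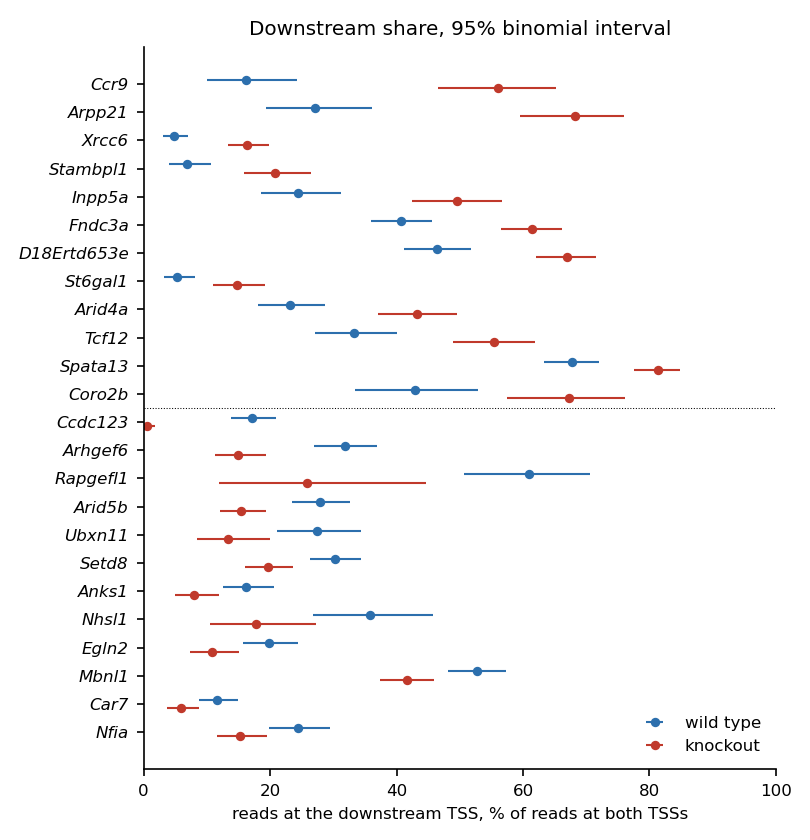
Share of reads at the downstream TSS in percent (horizontal) with its exact 95% binomial interval, wild type and knockout, for the 12 members most shifted toward downstream (above the dotted line) and the 12 most shifted toward upstream (below it). The intervals of the libraries overlap only at Nhsl1 and Car7. The members drawn were chosen by the interval of the ratio of ratios, so this separation follows in part from the choice.

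Ccdc123 was the most extreme member. It encodes the centrosomal protein CEP89 (chromosome 7, plus strand, 36182054 and 36201347) and had 371 wild-type and 382 knockout reads upstream and 77 and 2 downstream. The upstream promoter was alike in both libraries, while the downstream promoter had almost no reads in the knockout, a ratio of ratios of 0.0252 (0.00299 to 0.0957). That downstream TSS met the read minimum only through the wild type. No protein-coding transcript of Ccdc123 starts at either compared TSS. Its upstream TSS lies within 1 kb of C230052I12Rik. Within 5 Mb of it lay 2 positions where reads of the knockout library alone differed from the reference base, of 130 such positions in the genome, 55 of them on chromosome 7, where PA1 also lies. Whether sequence differences between the mice bear on this site was not tested.

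Arhgef6 and Arid5b also had a weaker downstream promoter in the knockout beside an upstream promoter that was not called. Arhgef6, an exchange factor for RAC and CDC42 (chromosome X, minus strand, 54591906 and 54579778), had 236 wild-type and 272 knockout reads upstream and 110 and 48 downstream, 0.379 (0.253 to 0.563). Arid5b, a DNA-binding partner of a histone demethylase (chromosome 10, minus strand, 67741474 and 67599374), had 287 and 339 upstream and 111 and 62 downstream, 0.473 (0.328 to 0.679). At Arhgef6 the downstream window was the richer in GC, by 12 points, and the ratio of ratios was 0.457 with the GC trend removed. No protein-coding transcript starts at the compared downstream TSS of Arhgef6. Rapgefl1 (chromosome 11, plus strand, 98698099 and 98711646) had few reads, 39 and 23 upstream and 61 and 8 downstream, 0.222 (0.0788 to 0.585). The downstream TSS of Rapgefl1 met the read minimum only through the wild type, and no protein-coding transcript starts there. Its stronger TSS changed from downstream to upstream, and 4 positions mismatched by the wild-type library alone lay within 5 Mb.

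Among the other 8 shifted toward upstream, 6 had a lower downstream TSS. Setd8, a histone H4 methyltransferase, had 363 wild-type and 368 knockout reads upstream and 157 and 90 downstream, 0.565 (0.415 to 0.768). Anks1, an ankyrin repeat adaptor, had 283 and 233 upstream and 55 and 20 downstream, 0.442 (0.244 to 0.775), with Taf11 near its upstream and Gm15598 near its downstream TSS. Egln2, a prolyl hydroxylase of the hypoxia pathway, had 280 and 248 upstream and 69 and 30 downstream, 0.491 (0.298 to 0.794). Its TSSs share an island, and 9 positions mismatched by the knockout library alone lay within 5 Mb. Car7, a carbonic anhydrase, had 381 and 349 upstream and 50 and 22 downstream, 0.480 (0.271 to 0.828), with Nae1 near its upstream TSS, and lost the call with 500 bp windows. Ubxn11 had 135 and 129 upstream and 51 and 20 downstream, and Nhsl1 68 and 74 upstream and 38 and 16 downstream. No protein-coding transcript starts at the compared downstream TSS of Setd8, Anks1 or Egln2, or at the upstream TSS of Ubxn11 or Nhsl1.

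Mbnl1 and Nfia were the other 2 shifted toward upstream. Mbnl1, a splicing regulator, had 223 wild-type and 306 knockout reads upstream and 249 and 218 downstream, 0.638 (0.493 to 0.826), and its upstream TSS alone was called, as higher. Nfia, a transcription factor of the nuclear factor I family, had 245 and 283 upstream and 79 and 51 downstream, 0.559 (0.370 to 0.841), with neither TSS called, and its downstream TSS lies within 1 kb of E130114P18Rik. Their downstream windows were richer in GC by 22.3 and 23.0 points, and with the GC trend removed the ratios were 0.795 and 0.772 and no longer called.

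Genes in the lists below are counted by annotated gene ID, so that a symbol with several IDs, such as Ciita or Runx2, counts once for each. A list of 40 gene IDs known for alternative promoters held 33 marked ones, of which 25 had TSSs 5 kb or more apart and 16 were members. Of these, 5 were shifted toward downstream and 0 toward upstream, with a median log2 ratio of ratios of 0.13, against 10.5% and 4.89% of all members and a median of 0.12 over all of them. Tcf12 is 1 of the 5. Prdm1 encodes BLIMP1, the regulator of plasma cell differentiation (chromosome 10, 44248307 and 44178493), and had 208 wild-type and 153 knockout reads upstream and 297 and 355 downstream, 1.62 (1.24 to 2.12). Its call was lost with 500 bp and with 2 kb windows, and no protein-coding transcript starts at its compared upstream TSS. Rassf1 and Rassf5 encode RAS-association domain proteins of growth control. Rassf1 had 124 and 78 upstream and 117 and 132 downstream, 1.79 (1.21 to 2.66), and lost the call with the GC and level trends both removed (1.48). The strongest TSS of Rassf1 lay between these, at 107456987 on chromosome 9, with 406 wild-type and 369 knockout reads. No protein-coding transcript starts at its compared downstream TSS. Rassf5 had 152 and 99 upstream and 353 and 373 downstream, 1.62 (1.2 to 2.20), and lost the call with the GC trend removed.

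Ikzf1 encodes IKAROS, a zinc finger regulator of lymphoid development (chromosome 11, 11585006 and 11590335). It had 103 wild-type and 64 knockout reads upstream and 463 and 497 downstream, 1.73 (1.22 to 2.46). Its TSSs lie in the same island with no dip between them, the upstream TSS is within 1 kb of Gm11999, and the downstream window was poorer in GC by 19.3 points. With the GC trend removed the value was 1.29 and not called, and with 2 kb windows the log2 value was -0.21.

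The other 11 genes of this list were not called. Pax5, the B lineage commitment factor, had 305 wild-type and 241 knockout reads upstream and 441 and 293 downstream, 0.841 (0.668 to 1.06). With its strongest 2 TSSs in place of the outermost the log2 value was -0.67 and called. Foxp1, a regulator of B cell development, had 417 and 417 upstream and 446 and 376 downstream. Tcf4, the E protein ITF2, had 161 and 182 upstream and 402 and 404 downstream. Runx1, whose distal and proximal promoters make different N termini, had 401 and 385 upstream and 35 and 28 at the most downstream marked TSS, while its TSS at 92697573 had 191 and 125. Abl1, a tyrosine kinase, had 279 and 253 upstream and 281 and 258 downstream.

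Ptpre, a receptor-type phosphatase, had 69 and 45 upstream and 365 and 357 downstream, with a ratio of ratios of 1.5 whose interval held 1 (0.985 to 2.30). Ptpn6, which encodes the phosphatase SHP-1, had 54 wild-type and 30 knockout reads upstream and 91 and 70 downstream. Its strongest TSS lay between these, at 124682789 on chromosome 6, with 595 and 466 reads. Cdkn2a, which makes ARF from the upstream and INK4a from the downstream promoter, had 159 and 105 upstream and 38 and 17 downstream, with the downstream TSS called lower. Dnmt3a, a DNA methyltransferase, had 47 and 34 upstream and 255 and 212 downstream. Tpm1, a tropomyosin, had 133 and 99 upstream and 276 and 215 downstream. Gnas, an imprinted G protein locus, had 26 and 26 upstream and 168 and 131 downstream. Over these 6 genes the ratios of ratios ran from 0.677 (Cdkn2a) to 1.5 (Ptpre), and each interval held 1.

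Of 63 gene IDs for transcription factors of the B lineage 59 were marked, 36 of these had TSSs far apart and 22 were members. Of these, 8 were shifted toward downstream and 0 toward upstream, against 10.5% and 4.89% of all members, and the median log2 ratio of ratios was -0.05 against 0.12. Beside Ikzf1, Prdm1 and Tcf12, they were Bach2, Zeb1, Pou2f1, Klf3 and Ets1. Bach2, a repressor that holds back plasma cell fate, had 118 wild-type and 70 knockout reads upstream and 203 and 237 downstream, 1.97 (1.37 to 2.84). Pou2f1, which encodes OCT1, had 100 and 72 upstream and 189 and 258 downstream, 1.90 (1.31 to 2.75). Klf3, a repressor of the KLF family, had 187 and 109 upstream and 195 and 195 downstream, 1.72 (1.25 to 2.36). Ets1 had 44 and 23 upstream and 347 and 319 downstream, 1.76 (1.01 to 3.12).

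The downstream TSS was ahead in wild type in 7 of the 8 genes, all but Tcf12. With the GC trend removed 3 of the 8 were still called, Tcf12, Prdm1 and Ets1. Irf8 and Aff3 had the opposite layout, with a strong upstream promoter. Irf8, a factor of B and myeloid cells, had 393 and 297 upstream and 47 and 25 downstream, 0.704 (0.405 to 1.2).

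Signalling genes were counted in 3 lists, to be read against 15.4% of all members called. Of 79 genes of B cell receptor signalling, all marked, 50 had TSSs far apart and 8 were members, with 0 shifted in either direction and ratios of ratios from 0.801 (Nedd9, a docking protein) to 1.38 (Ptpn6). Of 51 signal-dependent transcription factors 6 were members, and 1 was shifted toward downstream. It was Rara, the retinoic acid receptor alpha, with 47 wild-type and 18 knockout reads upstream and 90 and 75 downstream, 2.18 (1.12 to 4.32). Of 148 MAP and calcium-linked kinases 9 were members and 2 were shifted toward downstream, Map2k6 at 1.66 (1.12 to 2.49) and Rps6ka3 at 1.55.

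Among regulators of small GTPases 5 of 23 members were called and among cytoskeleton genes 5 of 12, in both directions, against 15.4% of all members. Of 191 GTPase regulators 23 were members, with Ralgapa2 and Arhgap27 shifted toward downstream and Arhgef6, Rapgefl1 and Rapgef3 toward upstream. Arhgap27 had 189 wild-type and 92 knockout reads upstream and 681 and 563 downstream, 1.70 (1.28 to 2.26). Of 109 cytoskeleton and adhesion genes 12 were members, with Coro2b, Myo10 and Macf1 shifted toward downstream and Coro1a and Myo7a toward upstream. Macf1, a linker of actin and microtubules, had 112 and 62 upstream and 285 and 288 downstream, 1.83 (1.27 to 2.64). Coro1a, the coronin of leukocytes, had 55 and 53 upstream and 315 and 189 downstream, 0.623 (0.401 to 0.968). Within 5 Mb of Coro1a lay 7 positions mismatched by the knockout library alone.

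The calls among chromatin regulators and ubiquitin ligases are to be read against 10.5% of all members toward downstream and 4.89% toward upstream. Of 175 chromatin regulators 22 were members, with Arid4a, Chd9 and Sirt1 shifted toward downstream and Arid5b, Ncoa7 and Setd8 toward upstream. Chd9, a chromatin remodeller, had 192 wild-type and 131 knockout reads upstream and 308 and 404 downstream, 1.92 (1.46 to 2.53). Sirt1, a deacetylase, had 233 and 211 upstream and 96 and 138 downstream, 1.59 (1.14 to 2.22). Ncoa7 had 331 and 303 upstream and 68 and 33 downstream, 0.530 (0.329 to 0.842). Of 285 ubiquitin ligase genes 16 were members, with Rnf220 (2.23) and Trim2 (1.65) shifted toward downstream and Asb4 (0.500) toward upstream.

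By chromosome the counts of calls were small, to be read against 10.5% of all members toward downstream and 4.89% toward upstream. Chromosome 9 had 34 members with 9 called toward downstream and 1 toward upstream, and chromosome 7 had 49 with 3 and 7. Chromosome 2 had 77 with 6 and 3, and chromosome 11 had 76 with 6 and 1. Positions mismatched by the knockout library alone numbered 130, of which 55 lay on chromosome 7. Each chromosome 7 member called toward upstream had some within 5 Mb, from 2 at Ccdc123 to 11 at Hif3a. Of those called toward downstream, Ampd3 had 3, Pde2a 6 and Inpp5a 0. Positions mismatched by the wild-type library alone numbered 159, of which 47 lay on chromosome 6. Each chromosome 6 member called toward upstream had some within 5 Mb, from 5 at Asb4 to 18 at St7. Iqsec1, called toward downstream, had 0. Elsewhere, Stambpl1 had 3 and Rassf5 6 of the knockout kind, and Spata13, Rara and Arhgap27 4 each of the wild-type kind. Ccr9, Arpp21, Xrcc6 and Arhgef6 had 0 of both. Whether these positions bear on the calls was not tested.

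The libraries were close in depth, with 5259995 nuclear reads in the knockout and 5539475 in the wild type, and the TMM-scaled size of the knockout was 0.876 of the wild type. The strongest TSS of PA1 (2900092E17Rik, chromosome 7, minus strand, 134159998), which is no member, held 261 reads in wild type against 114 in knockout (scaled ratio 0.498, 0.396 to 0.624). As the deleted part is not given, this does not check the genotype. All 8 B cell markers were marked, at 376 to 570 knockout and 385 to 585 wild-type reads. Of 11 T and NK cell markers 3 were marked (Gata3, Lck and Tbx21), with sums of 402 and 488 reads, and Cd3e had 1 and 0. Of 9 myeloid markers 3 were marked, with sums of 225 and 335 and Csf1r at 0 in both, and of 9 erythroid and stromal markers 4, with 629 and 610. The highest erythroid or stromal counts, 389 in knockout and 352 in wild type, were near the lowest of the B cell markers. The highest were 166 and 187 among T and NK markers and 118 and 171 among myeloid ones. Gata3 was the only member among the markers of other cells, with a ratio of ratios of 1.23 (0.848 to 1.8). In bulk chromatin, fewer cells with a mark and less mark per cell cannot be told apart.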

How the data were processed

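Each deposited file lists its mapped reads by position, strand and match descriptor, and gives no count or normalized value. Repeated reads at the same position and strand are absent, so the strongest promoters can be compressed, by an amount that was not measured. The submitters' processing notes name SICER and mm9. An aligner is not given in the sources read. Read positions were treated as 1-based, since the base named by 100% of the 1-mismatch descriptors matched the reference that way.

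The 5′ end of each read was shifted by 75 bp and reads were counted within 1 kb of annotated TSSs. Libraries were scaled by TMM (trims of 30% and 5%). Trends with GC and level are medians in 20 bins over 12186 promoters. Neighbouring pairs were adjacent protein-coding genes 5 kb or more apart, each with 50 or more reads. Islands came from 200 bp windows at a Poisson probability of 1e-05. Intervals are exact, at 95%, and cover counting error only, since reads amplified by PCR and lacking molecular identifiers can share a molecule. The scripts, in Python 3.11.15 with scipy 1.17.1, were tested on simulated data.

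The members and gene lists were chosen with earlier results of these data known. Genes were named by rule. These were the 12 members shifted in each direction with the interval bound farthest from 1, the 5 with the most reads, the 4 at each extreme of the wild-type ratio (200 or more reads), the 3 with the longest distance and the known alternative-promoter genes. Other members are named from the lists or as examples of a small count, chosen after their values were seen. Alternatives changed the window, shift, read minimum, distance, transcripts, choice of TSSs, trends, scaling and threshold.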

Additional observations from a re-analysis of the deposited data

How the results depend on the processing

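No paired analysis was possible because each genotype has 1 library. With 500 bp windows the upstream TSS was ahead in 52.8% (wild type) and 48.6% (knockout) of members, 21 members shifted toward upstream, 20 downstream TSSs were lower, the downstream median log2 ratio was 0.065, 10.3% of neighbouring pairs were called, and the median where downstream GC was higher by over 10 points was -0.37. With 2 kb windows these shares were 68.1% and 65.8%, the median log2 ratio of ratios was 0.071, 74 downstream TSSs were lower (median -0.011), 13.3% of neighbouring pairs were called, the median where downstream GC was lower by over 10 points was 0.22 (0.41 at 1 kb), and Ikzf1 turned to a log2 value of -0.21. There Ccdc123 had 0 knockout reads downstream and gave no ratio. At 100 or more reads the knockout share was 53.4%, 15 members shifted toward upstream, 3 upstream TSSs were higher, 18 downstream TSSs lower and 22 higher, and 9.79% of neighbouring pairs were called. At 10 kb or more apart 22 shifted toward upstream, and the upstream median was -0.091. With coding transcripts only 22 shifted toward upstream and 25 downstream TSSs were lower. Without members near another gene's TSS 444 were left, with an upstream median of -0.10 and 20 downstream TSSs higher. Removing the GC trend gave 42 members toward downstream, a median of 0.035, 9.04% of neighbouring pairs called, and medians of 0.11 and 0.081 where downstream GC was lower and higher by over 10 points, the latter reversed from -0.25. Removing the level trend gave 18 toward upstream and 7.33% of neighbouring pairs. Removing both gave 21 toward upstream, a median of 0.070, 5.15% of neighbouring pairs, and 0.13 and 0.029 in those GC classes, the latter reversed. Scaled to total reads, the upstream and downstream medians were -0.18 and -0.093 and 76 downstream TSSs were lower. Scaled to background reads, 173 upstream TSSs were lower and 1 higher (median -0.37), and 142 downstream TSSs lower and 10 higher (median -0.29). At 2-fold 22 and 11 members shifted, against 3.80% of neighbouring pairs. The causes were not tested, beyond the fewer members or reads that some settings leave.

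Of the 107 shifted members, 60 of 95 still measured kept their call with 500 bp windows, 81 of 107 with 2 kb windows, 97 of 106 with no read shift, 69 of 74 at 100 reads and 87 of 107 with the strongest 2 TSSs. Setd8 lost its call with the strongest 2 TSSs and with coding transcripts only. With the level trend removed Setd8, Anks1, Egln2, Car7, Rassf5, Ikzf1 and Nfia lost it, and with both trends removed Rassf5, Ikzf1, Rassf1, Mbnl1, Nfia, Ubxn11 and Car7. With 1 library per genotype, no setting shows how the values would vary between mice.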

Other observations

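Several genes known for alternative promoters were left out by the rule because 1 of the promoters had little signal in both libraries. Ciita, the MHC class II transactivator, had 3 knockout and 3 wild-type reads at its TSS at 10480237 on chromosome 16 and 506 and 544 at 10488392, so that the downstream promoter held nearly all of the signal. Lck, a lymphocyte tyrosine kinase, had 11 and 16 reads at its distal TSS (129250885 on chromosome 4) and 145 and 176 at 129233703. Runx3, a RUNX family factor, had 10 and 27 at its distal TSS (134676567 on chromosome 4) and 315 and 394 at 134710351. Nfatc1, a calcium-regulated factor, had 221 and 308 at 80909810 on chromosome 18 and 252 and 295 at 80904912, both marked but under 5 kb apart. At Dnmt3a, a member, the TSS at 3849635 on chromosome 12 between the marked promoters had 0 reads in both libraries.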
